A study of Caenorhabditis elegans with 16 samples.

Results

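The *pals* genes of *C. elegans* encode proteins with the ALS2CR12 signature, a sequence of unknown biochemical function that gave the family its name. Several members are best known from the intracellular pathogen response, a set of genes induced in the intestine by microsporidia and by the Orsay virus. Within this response *pals-22* acts as a repressor and its neighbour *pals-25* as an activator, *pals-17* is a further repressor, *pals-16* and *pals-20* act as activators, and *pals-5* serves as the usual reporter gene. The biochemical role of most other members is not known.

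The genes described here are all protein-coding genes whose symbol starts with *pals-*, which gave 37 genes of the 23758 in the 3 tables of counts. *pals-36* was annotated as protein-coding in the tables and as a pseudogene in RefSeq. The rule used the symbol alone and no measured value, although it was set with earlier results of these data known.

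RNA was sequenced from whole day 1 adults kept at 20 °C, with 4 biological replicates for each of 4 genotypes. These were wildtype (N2), *ubql-1(tm1574)* (a deletion allele of the ubiquilin gene *ubql-1*), *hsf-1* OE (*hsf-1*, the heat shock transcription factor gene, under the *sur-5* promoter with an *unc-54* 3′ end, integrated together with a *myo-2*p::tdTomato marker), and *hsf-1* OE;*ubql-1(tm1574)*, made by crossing these strains and called the double strain below. Each genotype was 1 strain, and *hsf-1* OE was a single integrated line, so an effect of the line cannot be told apart from that of the transgene. The comparisons ask how *hsf-1* OE and the *ubql-1(tm1574)* mutation changed the *pals* transcripts, and whether the change with *hsf-1* OE differed with that mutation.

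The libraries held between 18202151 and 30524762 counts, of which the *pals* family took 512 to 2806. A normalised count below is a count divided by the relative library size after TMM scaling of all 16 libraries. The mean for *ubql-1* was 1788 ± 124 normalised counts in *ubql-1(tm1574)* (SD, n = 4) against 4055 ± 106 in wildtype, and 1373 ± 102 in the double strain against 3779 ± 256 in *hsf-1* OE. By the study's account the allele still yields a truncated *ubql-1* mRNA and protein at lower levels, so some activity may remain. The mean for *hsf-1* was 2412 ± 136 in wildtype against 1994 ± 368 where the label was *hsf-1* OE, so counts of the gene carried by the transgene were not higher there. These counts do not separate the transgene from the endogenous gene. In the double strain it was 2828 ± 362 against 2288 ± 52.0 in *ubql-1(tm1574)*. The genotypes are therefore given below as the libraries were labelled.

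Most members lay close together in the genome. On chromosome I, 13 members lay within 62.3 kb (I:13083321-13145594, WBcel235) and *pals-1* lay apart from them. Chromosome III held 13 members in 3 runs. The first (III:120492-137965) held *pals-24*, *pals-23*, *pals-22* and *pals-25*, all on the plus strand, with 88 bases between *pals-24* and *pals-23* and the same distance between *pals-22* and *pals-25*. The second (III:1376945-1406265) held 6 members, *pals-40*, *pals-20*, *pals-17*, *pals-16*, *pals-19* and *pals-18*. The last (III:4376503-4387757) held *pals-26*, *pals-27* and *pals-28*. Chromosome IV held 2 members side by side. Of the 8 members on chromosome V, *pals-36*, *pals-37*, *pals-39* and *pals-38* formed a run (V:12434361-12446963), and *pals-31*, *pals-32*, *pals-33* and *pals-34* each lay alone. A run here means members no more than 50 kb apart.

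**Figure D1:**
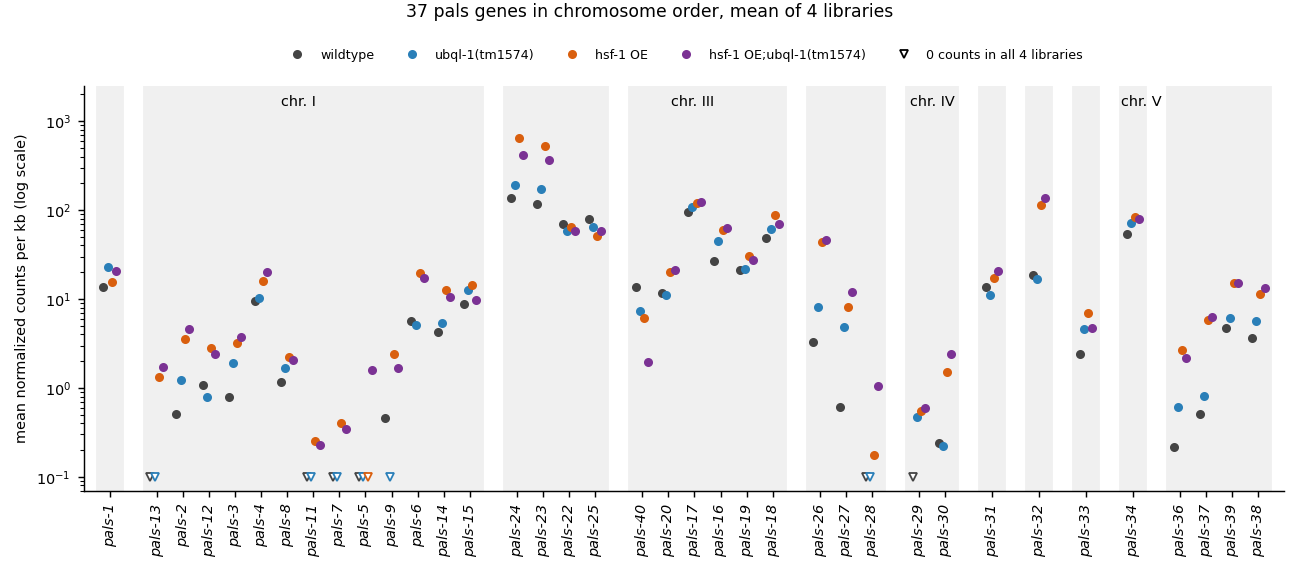
Mean normalised counts per kb (log scale, n = 4 libraries per point) of the 37 *pals* genes in chromosome order, with each run shaded and each genotype in its own colour. Open triangles mark a genotype with 0 counts in all 4 libraries. *pals-24* and *pals-23* were highest, and every member of the 13-gene run on chromosome I lay below 20 counts per kb in all 4 genotypes.

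Transcript levels were low and very unequal across the family. Over the 16 libraries the median member reached 8.48 normalised counts per kb, against 51.9 for the median of all 23758 genes. The order per kb was led by *pals-24* (348), *pals-23* (294), *pals-17* (112), *pals-34* (72.0) and *pals-32* (71.8). The last pair were level only as means over all 16 libraries. In wildtype *pals-34* was higher, at 53.3 ± 9.78 per kb against 18.5 ± 7.2 for *pals-32* (SD, n = 4). In *ubql-1(tm1574)* it was also higher, at 72.5 ± 17.7 against 16.7 ± 9.85. In the double strain *pals-34* was lower, with means of 78.6 against 137. In *hsf-1* OE the spreads overlapped, at 83.5 ± 9.52 against 115 ± 34.5. By mean count, 10 members had at least 20 normalised counts, 13 had between 5 and 20, and 14 had fewer than 5. Counts were above 0 in every library for 19 members.

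The large run on chromosome I was close to silent in these animals. Summed over its 13 members it gave 40.7 ± 16.2 normalised counts in wildtype and 49.4 ± 13.3 in *ubql-1(tm1574)*, against 99.5 ± 43.4 in *hsf-1* OE and 94.7 ± 34.1 in the double strain (SD, n = 4). In wildtype 6 members had 0 counts in all 4 libraries, namely *pals-13*, *pals-11*, *pals-7*, *pals-5*, *pals-28* and *pals-29*, and all but *pals-28* and *pals-29* belong to this run. A count of 0 in 4 libraries still allows about 3 counts in total.

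*pals-5*, the reporter gene of the response, had no listed count in any wildtype, *ubql-1(tm1574)* or *hsf-1* OE library. The 0 values in wildtype and *ubql-1(tm1574)* were filled in, because genes under 2 counts over 8 libraries were not listed. A single count there could have been missed. In the double strain *pals-5* had 0, 2, 3 and 4 counts in replicates 1 to 4. These values lie at or next to the detection limit of 3 counts, and *pals-5* passed the filter on low counts in none of the comparisons. With no filter edgeR called it higher in the double strain than in *ubql-1(tm1574)* (adjusted p = 0.0467), on 9 counts against 0, and DESeq2 gave it no adjusted p.

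*pals-24* and *pals-23* carried the largest change in transcript number. *pals-24* had 130, 107, 118 and 163 normalised counts in the wildtype libraries and 344, 442, 950 and 730 under the label *hsf-1* OE. All 4 *hsf-1* OE libraries lay above all 4 wildtype libraries, and replicates 3 and 4 lay above replicates 1 and 2. The fitted change was 5.28-fold, with a log2 fold change between 1.72 and 3.08 (2 SE either side; adjusted p = 0.000358 by edgeR's quasi-likelihood test).

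*pals-23*, which follows *pals-24* on the same strand, had 109, 97.8, 127.5 and 157.98 normalised counts in wildtype and 300, 408, 805 and 697 in *hsf-1* OE. The groups did not overlap, and the log2 fold change was 2.32 ± 0.34 (SE; adjusted p = 0.000417 by edgeR). Without replicates 3 and 4 of both genotypes the log2 fold changes were 1.81 for *pals-24* and 1.86 for *pals-23* (adjusted p by edgeR = 0.00437 and 0.00451), and without replicates 1 and 2 they were 2.57 and 2.39, so the rise was present in both subsets.

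The ratio of *pals-24* to *pals-23* counts stayed between 0.926 and 1.19 in all 16 libraries, while the level of each gene varied over more than those values. *pals-24* overlaps C29F9.12 on the other strand, and whether the counting used strand is not given in the sources used here, so reads of these genes cannot be told apart. Together *pals-24* and *pals-23* gave 31.7 to 35.7% of all *pals* counts in the wildtype libraries and 47.5 to 66.5% in the *hsf-1* OE libraries. In *ubql-1(tm1574)* the share was 34.4 to 43.1%, and in the double strain it was 42.7 to 50.4%. The exact 95% binomial intervals of single libraries, which cover counting error only, are drawn in the plot of these shares.

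**Figure D2:**
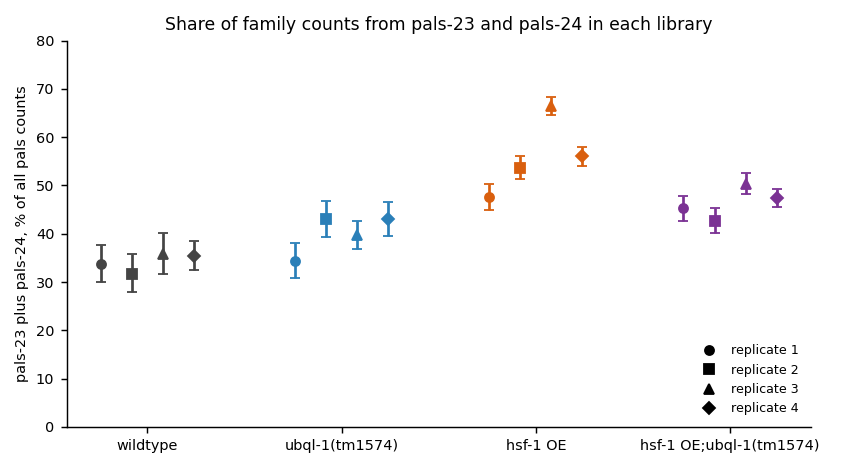
Share of all *pals* counts that came from *pals-23* plus *pals-24* in each library (y axis, percent), with exact 95% binomial intervals for counting error. The 4 wildtype libraries lie between 31.7 and 35.7%, and *hsf-1* OE replicate 3 is highest at 66.5%.

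Their neighbours *pals-22* and *pals-25*, within the same run, passed both thresholds in no comparison. *pals-22*, the repressor, had 64.9, 51.3, 60.4 and 74.9 normalised counts in wildtype and 73.8, 44.1, 52.4 and 56.7 in *hsf-1* OE. The groups overlapped, with a log2 fold change of -0.02 (2 SE either side, -0.45 to 0.40; adjusted p = 0.932 by edgeR), which turned to 0.33 when libraries were scaled to 3 housekeeping genes (*cdc-42*, *pmp-3*, *rpb-2*).

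*pals-25*, the activator, had 75.7, 78.7, 83.2 and 100.4 normalised counts in wildtype and 63.0, 46.8, 46.2 and 62.6 in *hsf-1* OE. All 4 *hsf-1* OE libraries lay below all 4 wildtype libraries. The log2 fold change of -0.49 ± 0.20 (adjusted p = 0.0468 by edgeR) passed the p threshold but not the fold change threshold. By p alone 28.7% of all genes were lower in this comparison. The adjusted p of *pals-25* ran from 0.00527 to 0.534 over the alternatives, and its sign was negative in each of them.

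Across the family, 17 members passed the filter on low counts between *hsf-1* OE and wildtype, and 7 of them rose past both thresholds (a change of more than 2-fold with an adjusted p under 0.05), while none fell. Of all 14794 genes tested, 22.6% rose and 3.6% fell by the same rule. The median log2 fold change was 0.86 over the 17 members and 0.29 over all genes. With scaling to the housekeeping genes these medians were 1.21 and 0.65. The members that passed the filter include some that passed through their level in *hsf-1* OE, so these counts describe the tested members only. With no filter 36 members could be tested and 13 rose, against 15.6% of all genes. The 13 held 6 of the 7, all but *pals-18*, and added *pals-27*, *pals-6*, *pals-36*, *pals-37*, *pals-39*, *pals-14* and *pals-13*. A count that needs no filter is that of genes with all 4 *hsf-1* OE libraries above all 4 wildtype libraries. This held for 11 of the 37 members (29.7%) and for 20.3% of all 23758 genes.

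**Figure D3:**
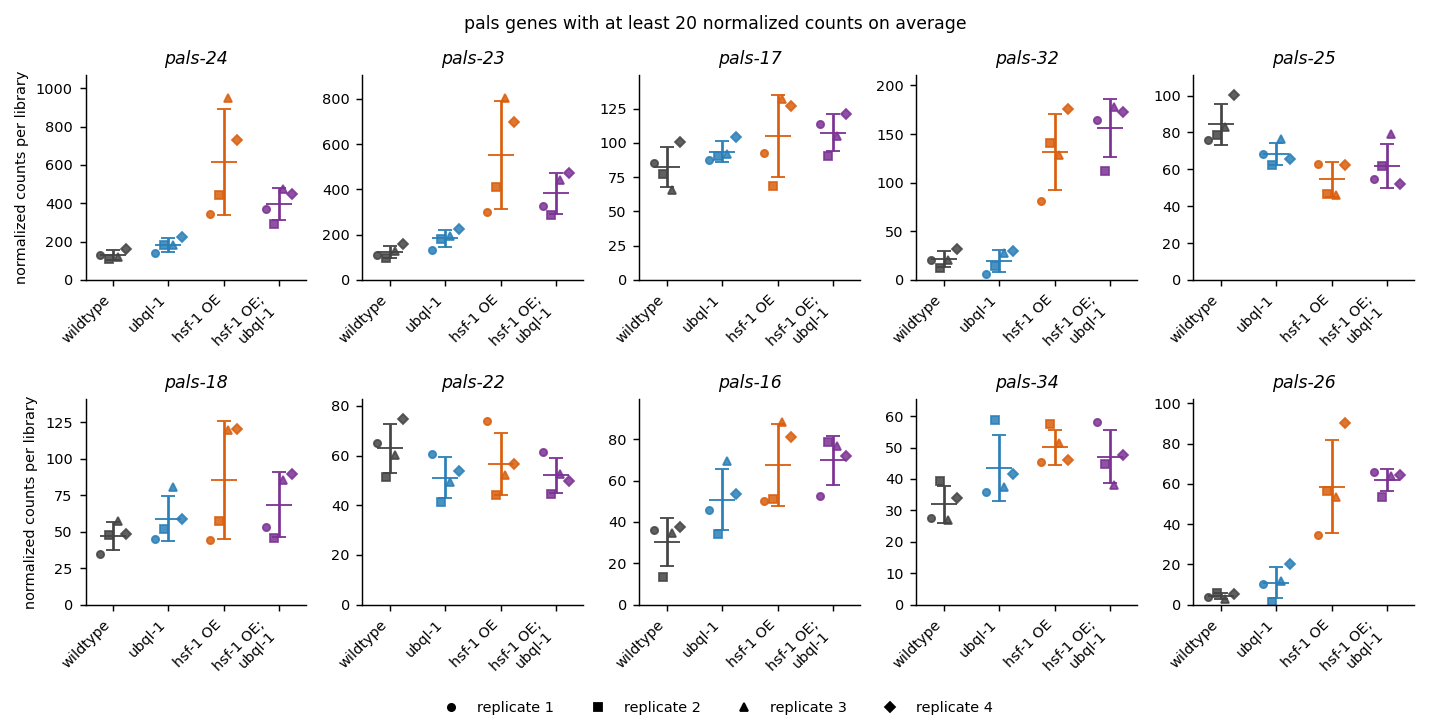
Normalised counts per library (y axis, starting at 0) of the 10 *pals* genes with at least 20 normalised counts on average, by genotype. Marker shapes give the replicate number, and bars give the mean ± SD (n = 4). For *pals-24*, *pals-23*, *pals-32* and *pals-26* the libraries labelled *hsf-1* OE lie above those of wildtype, whereas *pals-22* overlaps in all 4 genotypes.

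Among the 17 members that passed the filter, the largest fold change belonged to *pals-26*, the first gene of the last run on chromosome III (III:4376503-4378883). It had 3.61, 5.96, 2.68 and 5.48 normalised counts in wildtype and 34.5, 56.7, 53.4 and 90.0 in *hsf-1* OE. Every *hsf-1* OE library lay above every wildtype library, and the log2 fold change was 3.82 ± 0.43 (adjusted p = 0.000152 by edgeR). The wildtype level rests on 16 counts in 4 libraries, and the ratio of summed counts per unit of library size was 12.9 (95% counting interval 7.77 to 22.9).

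*pals-27*, the next gene along, had 3 counts in all wildtype libraries together and 47 in *hsf-1* OE. This is a ratio of 13.3 per unit of library size, with a 95% counting interval from 4.29 to 67.0. It was not tested between *hsf-1* OE and wildtype because it did not pass the filter. The log2 fold change was 3.67 by DESeq2 (adjusted p = 0.00124) and 3.55 when all 16 libraries were fitted together by edgeR (adjusted p = 0.00034). *pals-28*, the last gene of the run, had at most 4 counts in any library.

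*pals-32* (V:2896637-2898417) lies alone on chromosome V. It had 20.4, 11.9, 20.1 and 32.0 normalised counts in wildtype and 80.7, 141, 128 and 176 in *hsf-1* OE. The groups did not overlap, with a log2 fold change of 2.77 ± 0.36 (adjusted p = 0.000258 by edgeR). Of the members that lie elsewhere on the same chromosome, *pals-33* did not pass the filter in any comparison, and *pals-31* and *pals-34* passed both thresholds in none with the settings used throughout. *pals-31* came closest in the double strain against *ubql-1(tm1574)*, without overlap and at 0.98 ± 0.31 (adjusted p = 0.0186 by edgeR). It passed there when scaled to the housekeeping genes (1.28) and in 3 of the 8 fits that left out 1 library. *pals-34* had 27.6, 39.4, 26.8 and 33.8 normalised counts in wildtype and 45.3, 57.6, 51.3 and 46.0 in *hsf-1* OE, without overlap, and its log2 fold change of 0.79 ± 0.22 (adjusted p = 0.0107 by edgeR) stayed under the fold change threshold, which it passed when scaled to the housekeeping genes (1.15).

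In the chromosome V run, *pals-38* rose from 5.03 ± 1.85 normalised counts in wildtype to 15.5 ± 3.53 in *hsf-1* OE, with a log2 fold change of 1.72 ± 0.35 (adjusted p = 0.00214 by edgeR, higher in 4 of 4 libraries). Without replicates 3 and 4 of both genotypes its adjusted p was 0.0743. *pals-37* had 4 counts in all wildtype libraries together and 54 in *hsf-1* OE, a ratio of 11.5 (95% counting interval 4.24 to 43.7). *pals-39* had a mean of 6.94 ± 1.91 in wildtype and 22.2 ± 20.5 in *hsf-1* OE, where replicate 4 reached 52.8 and the others lay between 9.90 and 14.4. Neither *pals-37* nor *pals-39* passed the filter here.

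In the second run on chromosome III the changes were smaller. *pals-16*, an activator of the response, had 36.1, 13.1, 34.9 and 37.4 normalised counts in wildtype and 50.2, 51.3, 88.3 and 81.2 in *hsf-1* OE. The groups did not overlap, with a log2 fold change of 1.297 ± 0.36 (adjusted p = 0.0107 by edgeR). Without replicates 3 and 4 of both genotypes the log2 fold change was 1.11 with an adjusted p of 0.117.

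*pals-18* had 34.9, 47.7, 57.7 and 48.4 normalised counts in wildtype and 44.3, 57.6, 120.1 and 120.3 in *hsf-1* OE, so that replicates 1 and 2 fell within the wildtype range. Its log2 fold change of 1.02 ± 0.37 (adjusted p = 0.0352 by edgeR) lay just past both thresholds. It lost the call under 11 of 16 alternatives, among them the replicate number as a block (0.91, adjusted p = 0.0214) and the removal of *hsf-1* OE replicate 3 or 4 (0.68 in each case).

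The repressor *pals-17* had 85.3, 77.5, 65.8 and 100.4 normalised counts in wildtype and 92.5, 68.4, 132 and 127 in *hsf-1* OE, with overlap and a log2 fold change of 0.49 ± 0.26 (adjusted p = 0.116 by edgeR). The activator *pals-20* had a mean of 10.8 ± 3.25 in wildtype and 18.5 ± 7.66 in *hsf-1* OE, with a log2 fold change of 0.91 ± 0.38 (adjusted p = 0.0586 by edgeR). It passed both thresholds when the libraries were scaled to the housekeeping genes (1.27, adjusted p = 0.0158) and without *hsf-1* OE replicate 4 (1.01, adjusted p = 0.0343). Of the 5 regulators, *pals-16* alone passed both thresholds in this comparison.

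The *ubql-1(tm1574)* mutation on its own changed no *pals* transcript past both thresholds. Between *ubql-1(tm1574)* and wildtype 13 members were tested by edgeR and none was called, by DESeq2 none was called, and 2 of the 13 had an unadjusted p under 0.05. Of all 14183 genes 2.41% were called in either direction and 33.1% had an unadjusted p under 0.05. The 2 members were *pals-23*, with a log2 fold change of 0.57 ± 0.20 (adjusted p = 0.0874), and *pals-24*, with 0.48 ± 0.18 (adjusted p = 0.105). *pals-24* had 140, 180, 182 and 225 normalised counts in *ubql-1(tm1574)*, and *pals-23* had 132, 183, 195 and 224. Both ranges overlapped with that of wildtype, while within each replicate number both genes were higher in *ubql-1(tm1574)*, in 4 of 4 pairs. With the replicate number as a block the adjusted p by edgeR was 0.0192 for *pals-23* (0.58 ± 0.13), 0.0342 for *pals-24* (0.49 ± 0.14) and 0.0406 for *pals-16* (0.76 ± 0.22). All 3 stayed under the fold change threshold, and by p alone 16.1% of all genes were higher in that fit.

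*pals-27* was the only member with all 4 *ubql-1(tm1574)* libraries above all 4 wildtype libraries. That is 1 of 37 members (2.70%), against 7.39% of all 23758 genes. The gene had 23 counts in *ubql-1(tm1574)* against 3 in wildtype. This is a ratio of 7.34 with a 95% counting interval from 2.22 to 38.2. It did not pass the filter in this comparison. With all 16 libraries in one edgeR fit, 466 of all 15645 genes were called higher and 16 lower. *pals-27* was the only member called there, with a log2 fold change of 2.75 (adjusted p = 0.0467). *pals-22* and *pals-25* had log2 fold changes of -0.30 ± 0.19 and -0.31 ± 0.15 (adjusted p by edgeR = 0.300 and 0.195). *pals-32* had 5.61, 14.1, 27.1 and 29.5 normalised counts in *ubql-1(tm1574)*, within and below the wildtype range.

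In the *ubql-1(tm1574)* background *hsf-1* OE was again accompanied by higher *pals* transcripts. Between the double strain and *ubql-1(tm1574)*, which share no library with the comparison of *hsf-1* OE and wildtype, 20 members were tested, 8 rose past both thresholds and none fell. Of all 15197 genes 12.8% rose and 1.87% fell. The median log2 fold change was 0.96 over the tested members and 0.11 over all genes, or 1.26 and 0.40 when scaled to the housekeeping genes. Here too some members passed the filter through their level in the double strain, so these values describe the tested members only. With no filter on low counts 37 members were tested and 12 rose, against 10.6% of all genes. The 12 held the 8 and added *pals-5*, *pals-13*, *pals-30* and *pals-37*. All 4 libraries lay above all 4 for 9 of the 37 members (24.3%) and for 16.5% of all 23758 genes.

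*pals-32* rose most, with 164, 112, 178 and 172 normalised counts in the double strain and a log2 fold change of 3.08 ± 0.35 (adjusted p = 0.00012 by edgeR). *pals-26* had 10.1, 1.18, 11.9 and 20.1 in *ubql-1(tm1574)* and 65.9, 53.5, 63.7 and 64.4 in the double strain, a log2 fold change of 2.58 ± 0.41 (adjusted p = 0.000766). Neither gene overlapped between the genotypes.

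*pals-24* had 370, 293, 473 and 448 normalised counts in the double strain, all above the highest *ubql-1(tm1574)* library, with a log2 fold change of 1.18 ± 0.18 (adjusted p = 0.000628 by edgeR). *pals-23* had 327, 285, 443 and 473, again without overlap, with a log2 fold change of 1.121 ± 0.20 (adjusted p = 0.00118). *pals-38* had a log2 fold change of 1.304 ± 0.32 (adjusted p = 0.00588, higher in 4 of 4 libraries), which was 0.82 with an adjusted p of 0.165 without replicates 3 and 4 of both genotypes.

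The other members called here were *pals-6*, *pals-27* and *pals-39*, all of low level. *pals-6*, in the chromosome I run, rose from 6.82 ± 2.42 to 23.2 ± 10.04 normalised counts without overlap (log2 fold change 1.79 ± 0.41, adjusted p = 0.00405 by edgeR). *pals-27* rose from 6.71 ± 4.13 to 16.6 ± 8.92, and *pals-39* from 8.80 ± 5.16 to 22.2 ± 8.28, both with overlap and with adjusted p of 0.0348 and 0.0275. *pals-27* lost its call under 8 of 16 alternatives, *pals-39* under 3 of 15. With the replicate number as a block *pals-4*, also in the chromosome I run, was called as well, at 1.136 ± 0.39, against 1.09 ± 0.55 (adjusted p = 0.108 by edgeR) without it.

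The regulators showed no call in this comparison. *pals-22* had a log2 fold change of 0.08 (2 SE either side, -0.31 to 0.47) and *pals-25* of -0.09 (-0.46 to 0.29), and both groups overlapped. *pals-17* had 0.26 ± 0.15, *pals-16* 0.51 ± 0.24 and *pals-20* 0.94 ± 0.55, with adjusted p by edgeR of 0.157, 0.0799 and 0.158.

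Of the 7 members that rose with *hsf-1* OE in wildtype and the 8 that rose in *ubql-1(tm1574)*, 5 were in both lists, which is 71.4% of the first and 62.5% of the second. Over all genes 1544 were in both lists, 46.2% of the first and 79.6% of the second. These 5 were *pals-23*, *pals-24*, *pals-26*, *pals-32* and *pals-38*. They come from the first and the last run of chromosome III and from separate places on chromosome V. The other 3 of the second list, *pals-6*, *pals-27* and *pals-39*, did not pass the filter in the first comparison, where DESeq2 and the fit of all 16 libraries called each of them.

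**Figure D4:**
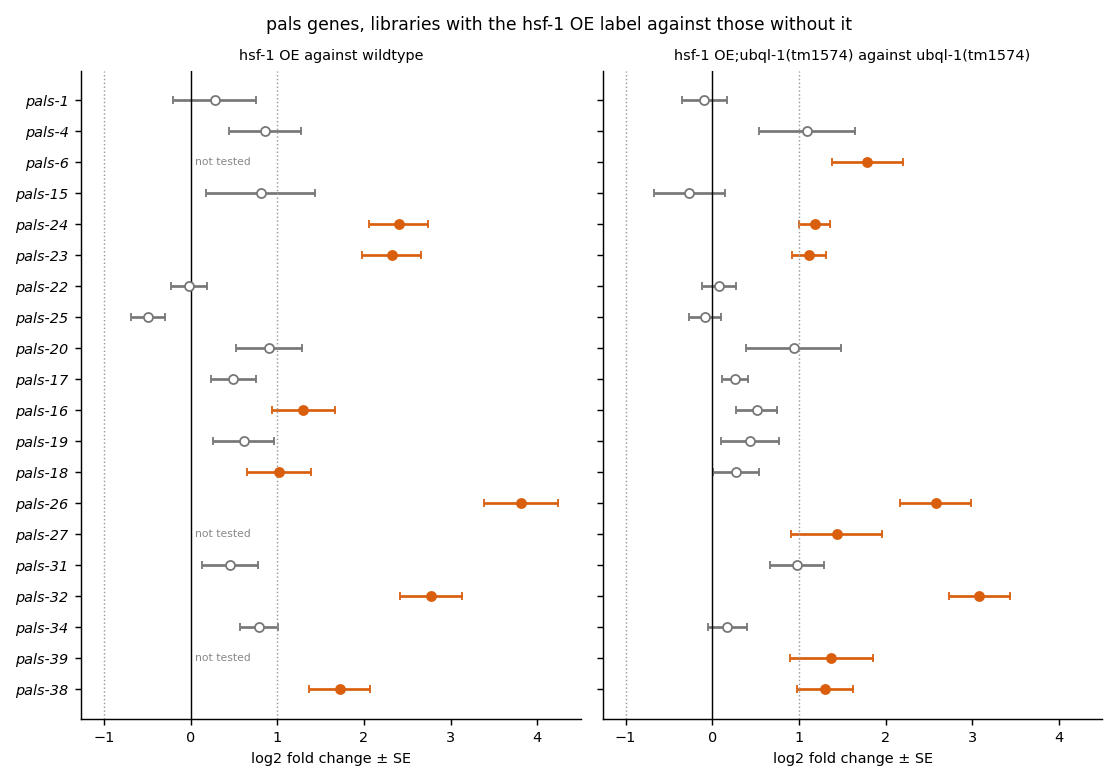
Log2 fold changes ± SE of the *pals* genes tested in at least 1 of the comparisons, for *hsf-1* OE against wildtype (left) and the double strain against *ubql-1(tm1574)* (right), in chromosome order. Filled points passed both thresholds, dotted lines mark a log2 fold change of 1 in either direction. *pals-26* and *pals-32* lie furthest to the right in both panels, and *pals-22* lies at 0.

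No member differed past both thresholds between the double strain and *hsf-1* OE. By edgeR 22 members were tested, none was called, and none had an unadjusted p under 0.05. Of all 15555 genes 0.611% were called in either direction and 11.5% had an unadjusted p under 0.05. DESeq2 also called none. *pals-24* had a log2 fold change of -0.67 (2 SE either side, -1.305 to -0.04; adjusted p = 0.462) and *pals-23* of -0.57 (-1.21 to 0.08; adjusted p = 0.552). For *pals-32* it was 0.21 (-0.31 to 0.74), and for *pals-26* it was 0.04 (-0.54 to 0.61). *hsf-1* OE replicates 1 and 2 lay within the range of the double strain for *pals-24* and *pals-23*, and replicates 3 and 4 lay above it. With the replicate number as a block no member was called either. In that fit the log2 fold change was -0.59 ± 0.17 for *pals-24* and -0.50 ± 0.16 for *pals-23* (adjusted p by edgeR = 0.085 and 0.106). Their unadjusted p by edgeR was then under 0.05, as it was for 3768 of all 15555 genes.

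Whether the change with *hsf-1* OE differed between the *ubql-1* backgrounds was tested as an interaction in one edgeR model of all 16 libraries. Of 22 members tested none was called, DESeq2 called none, and 3 had an unadjusted p under 0.05. Of all genes 0.55% were called in either direction and 19.4% had an unadjusted p under 0.05. These 3 were *pals-24* (-1.119 ± 0.38, adjusted p = 0.142), *pals-23* (-1.10 ± 0.39, adjusted p = 0.153) and *pals-27* (-2.19 ± 0.90, adjusted p = 0.204). A negative value means a smaller rise with *hsf-1* OE in *ubql-1(tm1574)* than in wildtype. With the replicate number as a block, *pals-24* (-1.06 ± 0.28, adjusted p = 0.0312) and *pals-23* (-1.05 ± 0.23, adjusted p = 0.0199) passed both thresholds, and 5.45% of all genes were then called. Without *hsf-1* OE replicate 1, 91 of all 15846 genes were called higher and 400 lower. *pals-24* and *pals-23* passed there too, at -1.31 and -1.30 (adjusted p = 0.0277 and 0.0319). Without *hsf-1* OE replicate 3 the values shrank to -0.85 for *pals-24* and -0.88 for *pals-23* (adjusted p by edgeR = 0.255 and 0.288). For *pals-32* the interaction was 0.41 ± 0.53, and for *pals-26* it was -1.143 ± 0.65 (adjusted p = 0.699 and 0.347).

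The intracellular pathogen response has further genes outside the family, and a list of 20 was followed alongside, of which 7 to 14 passed the filter on low counts in a comparison. Between *hsf-1* OE and wildtype 10 were tested, 6 rose and *sdz-6* fell, with a median log2 fold change of 1.143. The shares of all genes were those given above, 22.6% higher and 3.6% lower. Some of the 10 passed the filter through their level in *hsf-1* OE, so these counts and the median describe the tested genes only. *fbxa-158*, an F-box gene of the response, rose by 3.67 ± 0.77 on the log2 scale, from 2.01 ± 2.39 to 26.7 ± 19.6 normalised counts. B0507.6 rose by 2.97 ± 0.48, *skr-5*, a Skp1-related gene, by 1.69 ± 0.40, *ddn-1* by 1.36 ± 0.31 and *skr-4* by 1.19 ± 0.12 (adjusted p by edgeR from 9.98e-05 to 0.00497 over these 5). *cul-6*, the cullin that works with SKR-3, SKR-4 and SKR-5 in a ubiquitin ligase, had a log2 fold change of 0.89 ± 0.31 (adjusted p = 0.027), under the fold change threshold.

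Between the double strain and *ubql-1(tm1574)* 11 of the 20 were tested and 4 rose, namely *fbxa-158* (2.52 ± 0.61), *skr-5* (2.36 ± 0.29), B0507.6 (2.27 ± 0.26) and *ddn-1* (1.134 ± 0.30), with none lower, where 12.8% of all genes rose. All 4 were also among those that rose between *hsf-1* OE and wildtype. Some of the 11 passed the filter through their level in the double strain, so these counts also describe the tested genes only. None of the list was called between *ubql-1(tm1574)* and wildtype (7 tested), between the double strain and *hsf-1* OE (13 tested), or in the interaction (14 tested).

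Of 7 regulators and sensors of the response outside the family, all tested in each comparison, *zip-1* was the only one called in any. This bZIP transcription factor is required for part of the response. Between *hsf-1* OE and wildtype, where 22.6% of all genes rose, *zip-1* rose from 232 ± 24.3 to 443 ± 76.3 normalised counts (log2 fold change 1.07 ± 0.15, adjusted p = 0.000367 by edgeR). In the *ubql-1(tm1574)* background its log2 fold change was 0.77 ± 0.13 (adjusted p = 0.0011). *drh-1*, the RIG-I-like sensor of viral RNA, had a log2 fold change of -0.17 ± 0.09. Of 8 genes of the oomycete recognition response, 4 were tested with *hsf-1* OE in wildtype and 5 in *ubql-1(tm1574)*. *chil-22*, a chitinase-like gene, rose by 1.18 with *hsf-1* OE in wildtype and by 1.02 in *ubql-1(tm1574)*, where *old-1* also rose by 1.02. Of all genes 22.6% rose in the first of these comparisons and 12.8% in the second.

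**Figure D5:**
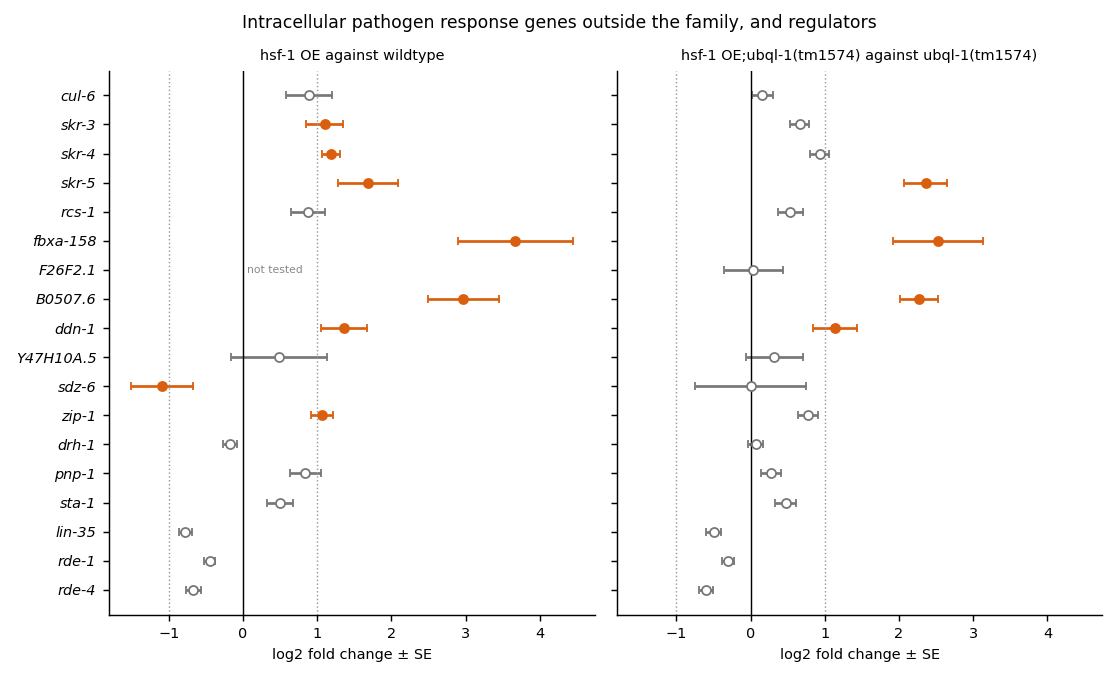
Log2 fold changes ± SE of the tested genes of the intracellular pathogen response outside the *pals* family and of its regulators, laid out as in the plot of the *pals* genes. Filled points passed both thresholds. *fbxa-158*, B0507.6, *skr-5* and *ddn-1* passed in both panels, and *sdz-6* was lower in the left panel alone.

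In whole animals, fewer cells of a type and less RNA per cell cannot be told apart, and other marker genes moved in the same comparison. Between *hsf-1* OE and wildtype all 7 sperm markers rose, with a summed level of 7125 to 9518 normalised counts against 1653 to 4335. All 6 oocyte markers fell, with sums of 35270 to 66365 against 115679 to 161203. Of the 6 epidermal and cuticle markers 5 rose, while their sum was 47922 to 58535 against 45403 to 53284, and of 4 early embryo markers both of the tested ones rose, with sums of 66.7 to 92.5 against 8.41 to 14.8. Of the 7 intestinal markers *ifb-2* alone rose, with sums of 46439 to 62457 against 32076 to 40832. None of these markers was at 0 in all 4 libraries of a genotype. In the double strain against *ubql-1(tm1574)*, 1 sperm marker rose, 1 oocyte marker fell and 5 epidermal and cuticle markers rose, as did the early embryo marker *end-3*. The oocyte sums there were 50210 to 77531 against 104173 to 120421. The intestinal sums were 48386 to 52229 against 35982 to 46409, also without overlap. Those of the sperm markers (6421 to 7854 against 4112 to 6476) and of the epidermal and cuticle markers (44448 to 48825 against 46046 to 50053) overlapped. Markers also moved without a difference in the *hsf-1* OE label. The epidermal and cuticle markers *dpy-7*, *rol-6* and *mlt-11* rose in *ubql-1(tm1574)* against wildtype, and the early embryo marker *pes-10* fell in the double strain against *hsf-1* OE. Their part in the *pals* results was not tested.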

How the data were processed

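After removal of adaptor-bearing and low-quality reads, the authors used HISAT2 2.0.5 for alignment and featureCounts 1.5.0-p3 for counting per gene, and the submitters' processing notes name the build WBcel235. The deposited values used here are raw counts per gene in 3 tables of 8 libraries, each listing genes with at least 2 counts. The tables were joined into 23758 genes, and 17372 cells (4.57%) that no table lists were set to 0. Another 48 columns of values per library, and the authors' own fold changes and p-values, were not used. The annotation release, strand setting and the treatment of reads that fit several members are not given in the sources used here, so levels of near-identical members are uncertain. The positions of 23176 of 23180 matched genes overlapped those of WBcel235.

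Each comparison used edgeR 4.0.16 (limma 3.58.1, R 4.3.3) on its 8 libraries, with TMM scaling, filterByExpr and the two-sided quasi-likelihood F test, and the interaction used all 16. Adjusted p (Benjamini-Hochberg) covered all genes tested. Alternatives were DESeq2 1.42.0, RLE size factors, scaling to 3 housekeeping genes, no filter, all 16 libraries in one fit, a replicate block, the p threshold alone and each library left out. The fits without replicates 3 and 4, or 1 and 2, of both genotypes were chosen after seeing the data. The test was checked on simulated data with known changes. Tables and plots used Python 3.11.15, numpy 2.4.6, pandas 2.3.3, scipy 1.17.1 and matplotlib 3.10.9.

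Members and gene lists were chosen with earlier results of these data known. Named members are the 5 regulators and *pals-5*, every member past both thresholds in a comparison (with values per library from a mean of 20 normalised counts), and the 5 highest per kb; of each other list at most 5 called genes per comparison are named, and others named, such as *cul-6* and *drh-1*, were chosen after their values were seen. Lists without a call named above were body wall muscle (4 genes), neurons (5) and germline (5), of which none was called in any comparison. Their summed levels still did not overlap between *hsf-1* OE and wildtype. Body wall muscle had 144776 to 185047 normalised counts in *hsf-1* OE against 114887 to 140050 in wildtype. Neurons had 3840 to 4364 against 4809 to 5340, and germline had 17415 to 23094 against 28051 to 30664.

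Whether the labels' replicate numbers pair libraries was checked over 11990 genes. Deviations from the genotype mean were correlated across genes, and for libraries sharing a number the lowest value was 0.105, 0.229, 0.491 and 0.210 in the 4 comparisons, each over 0.1, so the numbers were taken to pair the libraries. The main fits did not use this pairing, and the replicate block is the alternative that does.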

Additional observations from a re-analysis of the deposited data

Results flagged for a closer look

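Within single genotypes, the named members were searched for a library far from the other 3, in 61 groups of 4 libraries for 16 genes. The measure was the gap to the nearest library over the whole range, against Dixon's critical value for 4 samples, which chance passes in about 1 in 20 groups. It was passed 3 times. *pals-16* was low in wildtype replicate 2, with 13.1 normalised counts against 34.9 to 37.4 in the other wildtype libraries. *pals-39* was high in *hsf-1* OE replicate 4, with 52.8 against 9.90 to 14.4. *pals-38* was high in the double strain replicate 4, with 25.6 against 15.3 to 16.1.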

How the results depend on the processing

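Over the alternatives, 211 of 238 values of the 15 called fold changes kept direction and call, 27 lost the call and none changed sign. For *hsf-1* OE against wildtype the number of members called, 7, was 11 by DESeq2, 13 with no filter on low counts and 11 with all 16 libraries in one fit, each of which tested more members than the 17, and 4 without replicates 3 and 4 of both genotypes. It was 6 to 10 with single libraries left out. Of all genes, 3262 of 22936 rose by DESeq2, 3587 of 22949 with no filter and 3340 of 15645 with all 16 libraries in one fit. Without replicates 3 and 4 of both genotypes 2834 of 14946 rose, and 2830 to 3650 genes rose with single libraries left out. Between the double strain and *ubql-1(tm1574)* the number, 8, was 5 without replicates 3 and 4 and 6 to 9 with single libraries left out. Of all genes 1738 of 14990 rose there without replicates 3 and 4, and 1640 to 2260 with single libraries left out. Between *ubql-1(tm1574)* and wildtype the number of members called was 1 with all 16 libraries in one fit. In the interaction the number of members called was 2 with the replicate block and 0 to 2 with single libraries left out (2 without *hsf-1* OE replicate 1). The replicate block also took the call of *pals-18* and gave one to *pals-4* in the double strain against *ubql-1(tm1574)*, and changed no other call past both thresholds. The cause of these shifts, where not the number of genes or libraries, was not tested.

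Changes of sign fell on regulators in comparisons where they were not called. With scaling to the housekeeping genes *pals-22* turned to 0.33 between *hsf-1* OE and wildtype, *pals-25* to 0.21 between the double strain and *ubql-1(tm1574)*, *pals-17*, *pals-20* and *pals-16* to -0.067, -0.013 and -0.058 between the double strain and *hsf-1* OE, and *pals-20* to -0.016 in the interaction. Without replicates 3 and 4 *pals-22* was 0.076 (*hsf-1* OE and wildtype) and *pals-20* was -0.57 (the double strain and *hsf-1* OE); without replicates 1 and 2, *pals-17* and *pals-16* in the latter comparison were -0.24 and -0.23. With single libraries left out, *pals-22* ran from -0.28 to 0.061 between *hsf-1* OE and wildtype and from -0.017 to 0.17 in the *ubql-1(tm1574)* background, and, between the double strain and *hsf-1* OE, *pals-17* from -0.16 to 0.14, *pals-20* from -0.17 to 0.32 and *pals-16* from -0.12 to 0.18. For *pals-20* the interaction ran from -0.28 to 0.50. Depth limits the 27 members under 20 normalised counts on average, for which single reads move the fold change.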

Other observations

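The balance of the antagonists *pals-25* and *pals-22* was read within each library as the ratio of their counts, a measure chosen after the values were seen. The ratio was 1.17 to 1.53 in wildtype and 1.1296 to 1.55 in *ubql-1(tm1574)*. In the libraries labelled *hsf-1* OE it was 0.853 to 1.10, with no overlap with wildtype, and in the double strain it was 0.891 to 1.51, which overlaps with every other genotype.

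Summed over the family without *pals-23* and *pals-24*, the normalised counts were 441 to 584 in wildtype, 479 to 596 in *ubql-1(tm1574)*, 711 to 1117 in *hsf-1* OE and 774 to 1021 in the double strain. Every library of the genotypes with the *hsf-1* OE label thus lay above every library of the others in this sum too. The sum still includes *pals-26*, *pals-32* and *pals-38*, which were called in both backgrounds. It therefore does not show a rise across the rest of the family, and a sum without them was not made.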
